A study of Mus musculus with 8 samples.

Results

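The genes that make cholesterol and sense its level were followed in B16-F10 tumors grown under HFHCD. The set held 28 genes, chosen by their known roles: the enzymes from acetyl-CoA to cholesterol, the INSIG, SCAP and SREBP2 control genes, and genes of sterol transport, storage and oxysterol production. Of these, 26 had a named probe set among the 24675 named genes of the array, and Acat2 and Soat1 were not analysed here. The B16-F10 line derives from a melanoma of a C57BL/6 mouse, so the cells form tumors in immunocompetent C57BL/6J hosts. Female mice, 9 weeks old when they received the cells, had eaten either a high fat high cholesterol diet with cocoa butter and cholesterol (HFHCD, written HFD in the sample titles) or chow (CD) for the preceding 2 weeks. Tumors were harvested at day 9, 4 from each diet, and total RNA of each whole tumor was read on an Affymetrix MouseGene2.0ST array. The tumors of both diets came from the same line and the same strain, and no gene was altered in either group.

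Cholesterol is built from acetyl-CoA through mevalonate, isoprenoid units, squalene and lanosterol, and the last steps trim and reduce the lanosterol ring. When sterols in the membrane of the endoplasmic reticulum are low, SCAP carries SREBP2 to the Golgi, where it is cut and freed to activate the synthesis genes. When sterols are high, INSIG proteins hold SCAP back, and Insig1 is itself an SREBP target, so its transcript is widely used as a readout of the pathway. Melanoma cells can make their own cholesterol and can also take it up from lipoproteins.

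All values are log2 expression as summarised by the authors with RMA, so a difference of 1 is a doubling, and a level can be compared between tumors but not between genes. HFHCD was compared with CD by limma, and a gene is said to have risen or fallen where its unadjusted p was under 0.05, the threshold of the study's methods. Adjusted p-values (Benjamini-Hochberg) take in all 24675 genes. Nothing in the labels says that each tumor came from a separate mouse. The p-values therefore set the difference between diets against the spread among these tumors, which need not be the spread among mice. Precision is limited by the number of arrays. In whole tumors, fewer cells of a type and less RNA per cell cannot be told apart.

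Arrays correlated at 0.991 to 0.994 within HFHCD and at 0.974 to 0.990 within CD, and the lowest mean correlations with the other arrays were those of CD 1 (0.979) and CD 3 (0.980). These same CD tumors had the highest means of the macrophage, fibroblast, skeletal muscle, adipocyte, T and NK cell and neutrophil marker lists. On the keratinocyte and sebaceous gland lists CD 3 and CD 2 were the highest. On the endothelial list CD 4 was highest (6.72) and CD 1 had 6.29. The macrophage list averaged 5.94 to 6.50 in HFHCD tumors and 7.55, 6.59, 7.88 and 6.51 in CD 1 to CD 4, and 9 of its 13 measured genes fell. The fibroblast list averaged 5.46 to 5.63 in HFHCD tumors and 7.38, 6.32, 7.78 and 6.18 in CD 1 to CD 4, with 8 of 10 genes lower, and skeletal muscle genes were lower for 9 of 10. Melanocyte lineage genes averaged 11.82 to 11.92 in HFHCD tumors and 11.71 to 11.86 in CD tumors, and 1 of 10 rose, so the labelled tissue carried its defining transcripts on every array. Lower as well were 3 of 9 adipocyte, 1 of 10 endothelial, 3 of 8 interferon-stimulated and 1 of 9 proliferation genes, and 3 of 10 hypoxia genes were higher. In the keratinocyte, sebaceous gland, T and NK cell and neutrophil lists 0 passed. All these counts use the unadjusted p, by which 3.91% of all genes were lower and 4.76% higher, and after adjustment 0 of the 24675 genes passed. None of the macrophage, fibroblast or muscle genes was dim, meaning a mean over the 8 arrays under 4.49, the 40th percentile of all values. Dim genes made up 2 of 9 in the adipocyte list, 6 of 10 in the T and NK cell list and 8 of 9 in the neutrophil list. The part of host cells in the results on sterol genes was not tested. Leaving out CD 1 and CD 3 does not remove the difference, since the fibroblast means of CD 2 and CD 4 still lay above all HFHCD tumors.

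**Figure D1:**
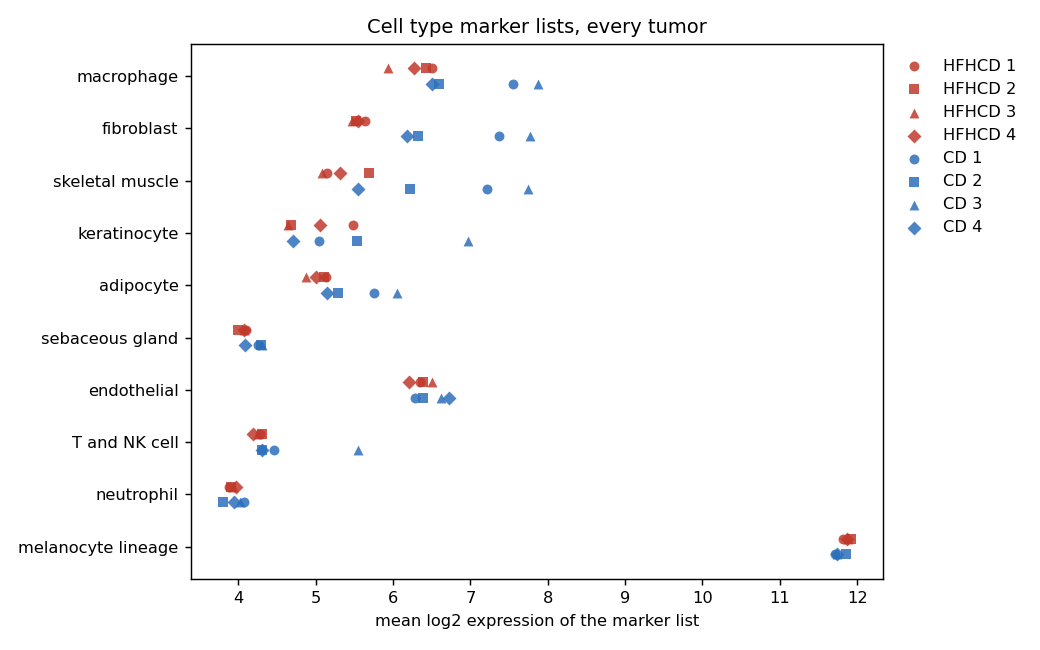
Mean log2 expression of each cell type marker list (x axis) in the 4 HFHCD tumors (red, upper row of each list) and the 4 CD tumors (blue, lower row), 1 point per tumor. CD 1 and CD 3 lie to the right of the other tumors for macrophage, fibroblast and skeletal muscle lists, at 7.55 and 7.88 for macrophage genes.

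Of the 26 sterol genes, 4 rose under HFHCD, 0 fell and 22 did not pass the test. The count of 4 was 2 by the methods' t-test, which uses the variance of each gene alone, 1 without HFHCD 3, 2 without HFHCD 2, HFHCD 4 or CD 2, and 8 without CD 4. Those that rose were Insig1 and the late synthesis enzymes Tm7sf2, Nsdhl and Dhcr7. Over all genes 4.76% rose and 3.91% fell, whereas 15.4% of the sterol genes rose. The median log2 fold change of the 26 was 0.13, against 0.002 over all genes, and 17 of them (65.4%) had a positive value, against 50.7% of all genes. None passed after adjustment, where the lowest adjusted p was 0.451 by limma, and 0 of all 24675 genes did so. Log2 fold changes ran between -0.32 (Ch25h) and 0.61 (Insig1), and none of the 26 genes was dim.

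**Figure D2:**
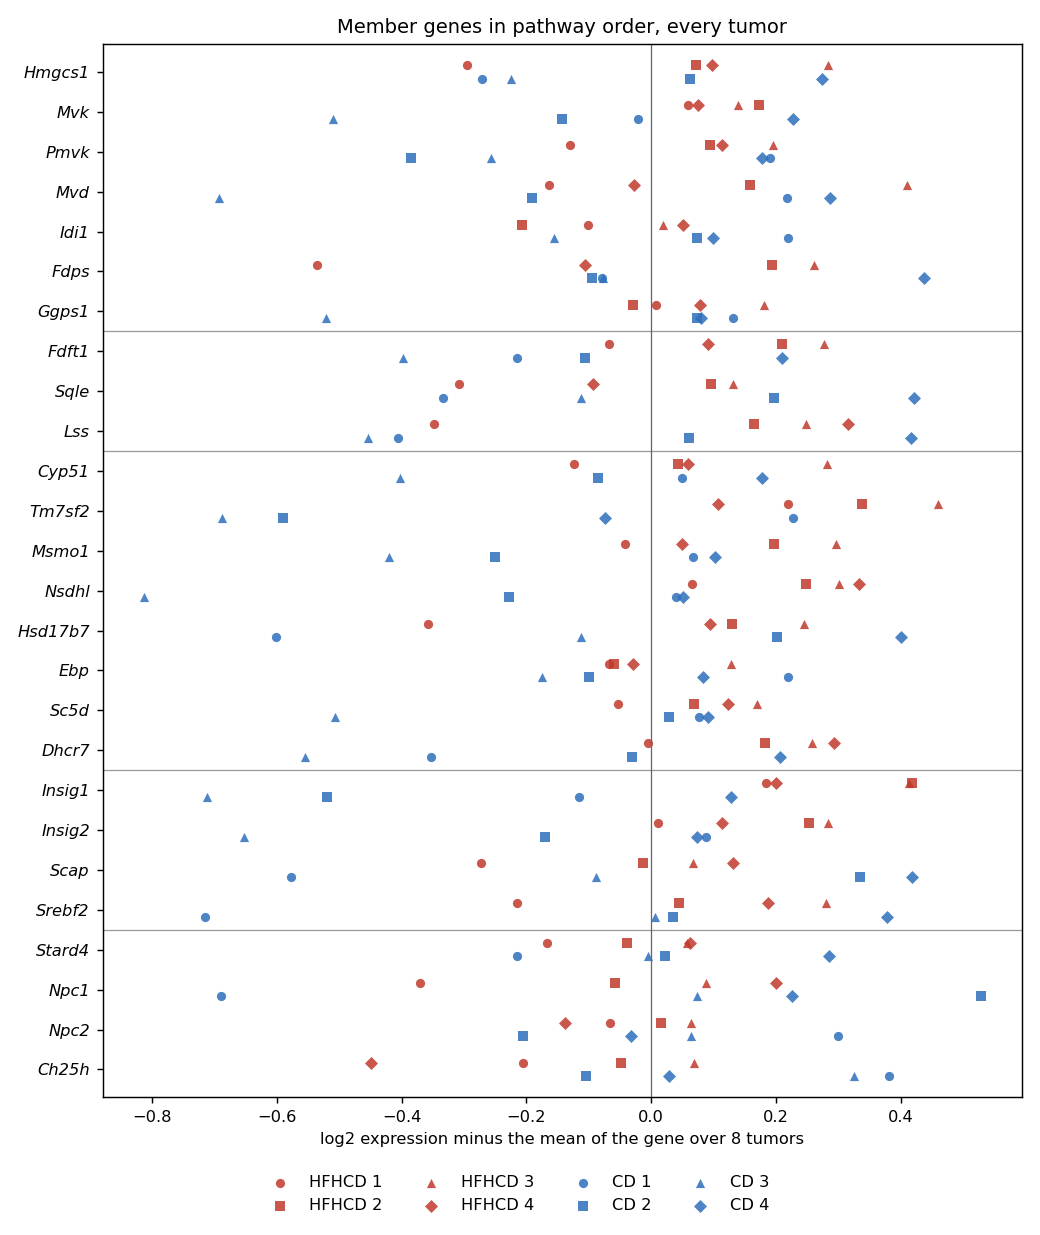
Log2 expression of the 26 genes in each tumor, as the difference from the mean of that gene over the 8 tumors (x axis), in pathway order from mevalonate enzymes (top) to transport and oxysterol genes (bottom). HFHCD tumors are red and above the CD tumors, which are blue, and the symbol gives the replicate number. The 4 HFHCD values of Insig1 and Nsdhl lie right of their 4 CD values, and CD 3 (blue triangle) is the lowest tumor for 14 genes.

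Insig1, the endoplasmic reticulum protein that retains SCAP, had 11.07, 11.30, 11.30 and 11.08 in HFHCD 1 to HFHCD 4, against 10.77, 10.37, 10.17 and 11.01 in CD 1 to CD 4. The diets did not overlap, although CD 4 came close to the lowest HFHCD tumor. The means were 11.19 ± 0.13 under HFHCD and 10.58 ± 0.38 under CD (SD, n = 4 each), a log2 fold change of 0.61 (95% interval 0.21 to 1.01) or 1.52-fold, with unadjusted p = 0.00684 and adjusted p = 0.451 by limma. An exact two-sided permutation test over the 70 assignments gave p = 0.0286, the smallest it can give. With each array centred on its median the groups overlapped and the exact permutation p was 0.0571 for Insig1, as it was for Nsdhl. By limma's threshold Insig1 passed in all 18 alternatives run, with log2 fold changes of 0.47 to 0.75, and without CD 1 and CD 3 the value was 0.50 (unadjusted p = 0.0212, adjusted p = 0.269 by limma).

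Nsdhl, a dehydrogenase that removes a carboxyl group left from the methyl groups of lanosterol, had 10.31, 10.50, 10.55 and 10.58 in HFHCD tumors, against 10.29, 10.02, 9.44 and 10.30 in CD tumors. These groups did not overlap either, but HFHCD 1 stood only just above CD 4 and CD 1, and CD 3 was far below the rest. The log2 fold change was 0.47 (95% interval 0.062 to 0.89; unadjusted p = 0.0285, adjusted p = 0.529 by limma), and the exact permutation test gave p = 0.0286. Without CD 1 and CD 3 it was 0.33 (unadjusted p = 0.0275, adjusted p = 0.293 by limma). It passed in 13 of 18 alternatives, and the largest of its p-values among them was 0.0668. Separation in this direction was seen in 2 of the 26 genes and the opposite in 0, and over all genes the HFHCD tumors lay wholly above the CD tumors for 2.93% and wholly below for 2.27% (5.2% in all).

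Tm7sf2, a sterol reductase of the endoplasmic reticulum that acts on the lanosterol ring, had 7.39, 7.51, 7.63 and 7.28 in HFHCD tumors, against 7.40, 6.58, 6.48 and 7.10 in CD tumors. The HFHCD values were tight and CD 2 and CD 3 were low. CD 1, which with CD 3 had the highest macrophage, fibroblast and skeletal muscle list means, lay among the HFHCD tumors, so the groups overlapped. The log2 fold change was 0.56 (95% interval 0.12 to 1.01; unadjusted p = 0.0184, adjusted p = 0.491 by limma), with p = 0.0857 in the exact permutation test. Leaving out CD 1 and CD 3 gave 0.61 (unadjusted p = 0.00479, adjusted p = 0.221 by limma). It passed in 16 of 18 alternatives.

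Dhcr7, the reductase of the last step to cholesterol in one branch of the pathway, had 10.36, 10.55, 10.63 and 10.66 in HFHCD tumors, against 10.02, 10.34, 9.81 and 10.58 in CD tumors. CD 4 lay above HFHCD 1 and HFHCD 2, and CD 1 and CD 3 were the lowest of all 8. The log2 fold change was 0.37 (95% interval 0.00031 to 0.73; unadjusted p = 0.0498, adjusted p = 0.576 by limma; exact permutation p = 0.0857). Without CD 1 and CD 3 it was 0.094 (unadjusted p = 0.461 by limma), so the call for Dhcr7 was lost.

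**Figure D3:**
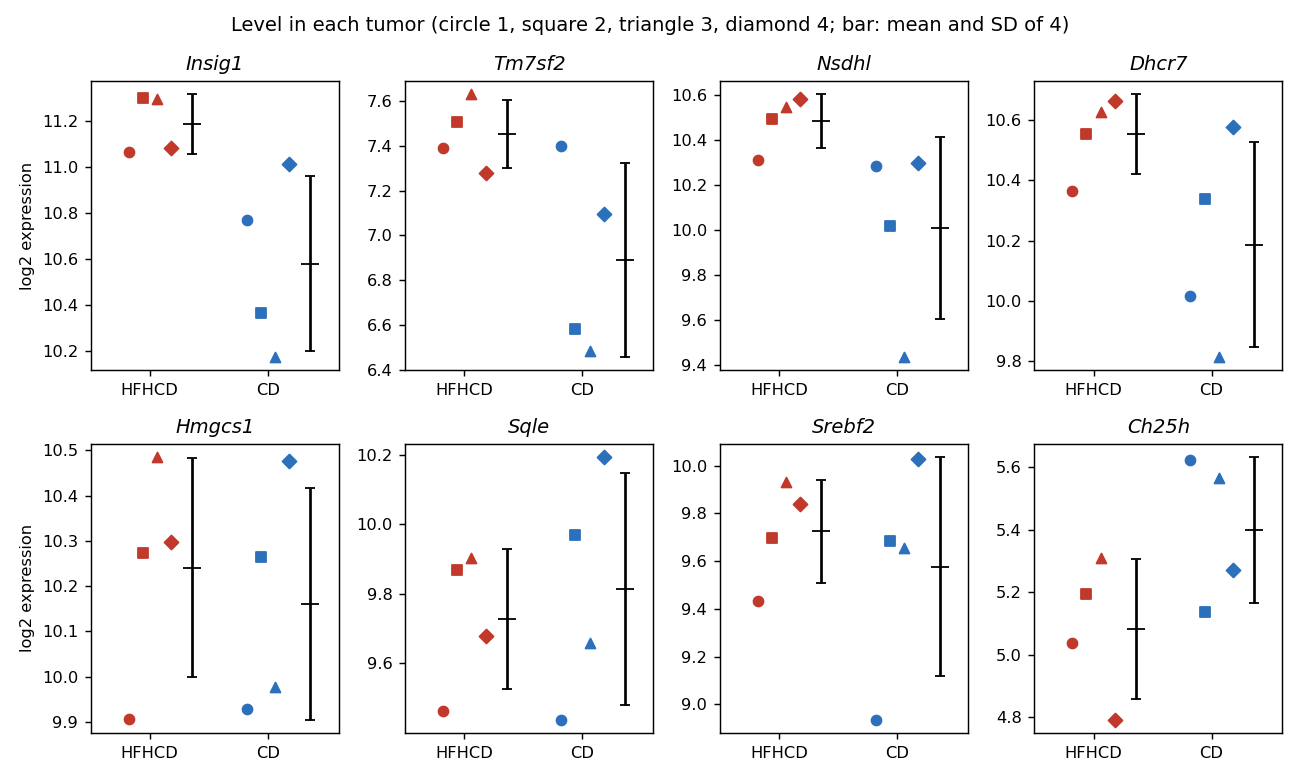
Log2 expression (y axis, a separate scale for each gene) of the 4 genes that rose (top row) and of Hmgcs1, Sqle, Srebf2 and Ch25h (bottom row) in HFHCD tumors (red, left) and CD tumors (blue, right). Symbols give the replicate number and bars the mean and SD of 4 tumors. In the top row the HFHCD tumors stand at 11.07 to 11.30 for Insig1, all above the CD tumors, whereas in the bottom row the groups overlap.

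The promoters of these 4 genes are shown because their transcripts rose together. That of Hmgcs1 is shown because, among the matched genes of the set, it alone held the exact letters TCACNCCAC in the 250 bases searched. These letters stand here for the sterol response element, and an element of another form or place would not be seen. Each line gives the 250 bases before a RefSeq transcript start in GRCm38.p6, 5′ to 3′ on the strand of the gene. The windows are chr5:28071162-28071411 (plus strand) for Insig1, chr19:6067851-6068100 (minus) for Tm7sf2, chrX:72918271-72918520 (plus) for Nsdhl, chr7:143829964-143830213 (plus) for Dhcr7, and chr13:119690101-119690350 (plus) for Hmgcs1. Of the 3 annotated starts of Dhcr7, the window shown was chosen because it alone holds a CCAAT box. One of the other windows has an E-box at 164 bases and the last has none of the motifs. Capitals mark the CCAAT box, which reads ATTGG on the other strand, the E-box CACGTG, and TCACNCCAC, the only form of the sterol response element searched.
Insig1: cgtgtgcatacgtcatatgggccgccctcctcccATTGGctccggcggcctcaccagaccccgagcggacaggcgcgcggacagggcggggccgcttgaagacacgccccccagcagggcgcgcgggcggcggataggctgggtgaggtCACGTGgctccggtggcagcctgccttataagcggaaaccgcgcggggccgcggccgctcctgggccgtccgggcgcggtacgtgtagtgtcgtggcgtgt
Tm7sf2: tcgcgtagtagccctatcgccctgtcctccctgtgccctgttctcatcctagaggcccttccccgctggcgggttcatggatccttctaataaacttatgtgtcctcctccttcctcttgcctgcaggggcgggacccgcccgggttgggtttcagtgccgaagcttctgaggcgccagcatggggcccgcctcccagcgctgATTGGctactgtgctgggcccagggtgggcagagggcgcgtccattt
Nsdhl: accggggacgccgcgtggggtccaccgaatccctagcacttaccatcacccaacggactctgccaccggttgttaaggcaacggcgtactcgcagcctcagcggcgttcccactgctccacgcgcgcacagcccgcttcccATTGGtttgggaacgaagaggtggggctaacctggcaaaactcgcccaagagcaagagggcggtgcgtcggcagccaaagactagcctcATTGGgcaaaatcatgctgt
Dhcr7: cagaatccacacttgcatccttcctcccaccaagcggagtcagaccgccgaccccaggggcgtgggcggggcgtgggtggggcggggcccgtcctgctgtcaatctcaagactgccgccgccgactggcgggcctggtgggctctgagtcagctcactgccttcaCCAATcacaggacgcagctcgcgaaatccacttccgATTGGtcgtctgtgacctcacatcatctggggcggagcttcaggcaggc
Hmgcs1: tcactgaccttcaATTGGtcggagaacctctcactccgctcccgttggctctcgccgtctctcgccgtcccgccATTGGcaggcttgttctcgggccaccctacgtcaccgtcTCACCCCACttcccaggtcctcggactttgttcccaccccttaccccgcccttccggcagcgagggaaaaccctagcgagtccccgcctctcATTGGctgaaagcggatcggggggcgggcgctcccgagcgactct

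These motifs were picked after the expression values had been seen, and both strands were searched, with no overlap between matches. SREBPs bind the sterol response element and act together with NF-Y, which binds the CCAAT box. Of the 28 genes, 23 had a promoter in the RefSeq table used here, and 20 of the 23 (87.0%) held a CCAAT box in at least one window, against 37.5% of all 27025 genes in that table. Insig1 held one 216 bases before the start, Nsdhl held them at 109 and 20 bases, Tm7sf2 at 47 bases and Dhcr7 at 85 and 49 bases in 1 of its 3 windows, so each gene that rose had the motif in at least 1 window. It was equally present in Idi1, Ebp, Lss and Srebf2, which did not pass the test. The E-box was found in 5 of 23 (21.7%), against 6.86% of all genes, and lay 101 bases before the start in Insig1. The element TCACNCCAC was found in 1 of 23 (4.35%), in Hmgcs1 at 137 bases, against 1.22% of all genes. A match is a description of letters and not of binding.

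Among the 18 synthesis enzymes measured, 3 rose (16.7%) and 0 fell, 14 had a positive log2 fold change (77.8%) and the median was 0.15. Over all genes 4.76% rose, 3.91% fell and 50.7% had a positive value, with a median of 0.002. The 3 that rose all belonged to the steps after lanosterol, where 7 of 8 enzymes had positive values with a median of 0.20. The mean of the 18 enzymes was 8.68, 8.92, 9.04 and 8.90 in HFHCD tumors, against 8.76, 8.72, 8.41 and 9.01 in CD tumors, so the diets overlapped, with CD 4 second highest and CD 3 lowest. Whether late steps differed from early ones was not tested.

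In the mevalonate and isoprenoid steps none of 7 enzymes passed. Hmgcs1, which makes HMG-CoA, had 9.91, 10.27, 10.49 and 10.30 in HFHCD tumors, against 9.93, 10.26, 9.98 and 10.48 in CD tumors, a log2 fold change of 0.079 (95% interval -0.28 to 0.44; unadjusted p = 0.627 by limma). On both diets its values covered almost the same range. Mevalonate kinase (Mvk) had 0.22, phosphomevalonate kinase (Pmvk) 0.14, mevalonate diphosphate decarboxylase (Mvd) 0.19 and geranylgeranyl diphosphate synthase (Ggps1) 0.12 as log2 fold change. Isopentenyl diphosphate isomerase (Idi1) had -0.12 and farnesyl diphosphate synthase (Fdps) -0.094. Of these, Mvk was the tightest under HFHCD, at 7.63 to 7.74, against 7.06 to 7.80 under CD.

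The 3 enzymes that turn farnesyl units into lanosterol did not pass either. Fdft1, squalene synthase, came closest with a log2 fold change of 0.26 (unadjusted p = 0.0973 by limma), and Lss, which closes the ring, had 0.19. Sqle, the squalene epoxidase that adds the first oxygen, had 9.46, 9.87, 9.90 and 9.68 in HFHCD tumors, against 9.44, 9.97, 9.66 and 10.19 in CD tumors. Its log2 fold change was -0.087 with all 8 tumors. The highest Sqle value was that of CD 4.

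Of the other steps after lanosterol, Msmo1, a methyl sterol oxidase, had 0.25 (unadjusted p = 0.101 by limma), Sc5d, the sterol desaturase, 0.15, Cyp51, the lanosterol demethylase, 0.13, and Hsd17b7, a ketosteroid reductase, 0.056. Ebp, the isomerase of the ring double bond, had the smallest change of the set. It had 9.01, 9.01, 9.20 and 9.04 in HFHCD tumors, against 9.29, 8.97, 8.90 and 9.16 in CD tumors, a log2 fold change of -0.014 (95% interval -0.26 to 0.23). The HFHCD values of Ebp lay inside the range of the CD values.

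Of the 4 control genes, Insig1 alone passed. Insig2, its paralog, had a log2 fold change of 0.33 (95% interval -0.038 to 0.70; unadjusted p = 0.0733 by limma), with 8.35, 8.60, 8.63 and 8.46 in HFHCD tumors, against 8.43, 8.17, 7.69 and 8.42 in CD tumors. HFHCD 1 lay below CD 1 and CD 4, which made the groups overlap. Srebf2, which encodes SREBP2, had 9.44, 9.70, 9.93 and 9.84 in HFHCD tumors, against 8.94, 9.69, 9.66 and 10.03 in CD tumors, a log2 fold change of 0.15. Scap had 9.42, 9.68, 9.76 and 9.82 in HFHCD tumors, against 9.11, 10.02, 9.60 and 10.11 in CD tumors, a log2 fold change of -0.044 (95% interval -0.51 to 0.43). CD 1 was the lowest of all 8 tumors for both Srebf2 and Scap, and CD 4 the highest.

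None of the 4 transport and oxysterol genes measured passed, and all 4 had negative log2 fold changes. Stard4, a carrier of cholesterol through the cytosol, had 7.55, 7.68, 7.77 and 7.78 in HFHCD tumors, against 7.50, 7.74, 7.71 and 8.001 in CD tumors, a log2 fold change of -0.043 (95% interval -0.31 to 0.22). The lysosomal exporters Npc1 and Npc2 had -0.069 and -0.062. Ch25h, an interferon-inducible enzyme of macrophages and other cells that makes 25-hydroxycholesterol, a sterol that favours INSIG binding to SCAP, had 5.04, 5.19, 5.31 and 4.79 in HFHCD tumors, against 5.62, 5.14, 5.57 and 5.27 in CD tumors. CD 1 and CD 3 were the highest and HFHCD 4 the lowest. Its log2 fold change was -0.32 (95% interval -0.65 to 0.017; unadjusted p = 0.0605 by limma), and without CD 1 and CD 3 it was -0.12 (unadjusted p = 0.438). The list means of macrophage and interferon-stimulated genes also peaked in CD 1 and CD 3 (7.55 and 7.88 for macrophage genes, 6.93 and 7.56 for interferon-stimulated genes). Under HFHCD the order differed, as Ch25h was highest in HFHCD 3 (5.31), where the macrophage mean was the lowest of all tumors (5.94). The interferon-stimulated mean was 6.24 in HFHCD 3 and lowest in HFHCD 4 (6.22), where Ch25h was lowest too. The part of these genes was not tested.

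**Figure D4:**
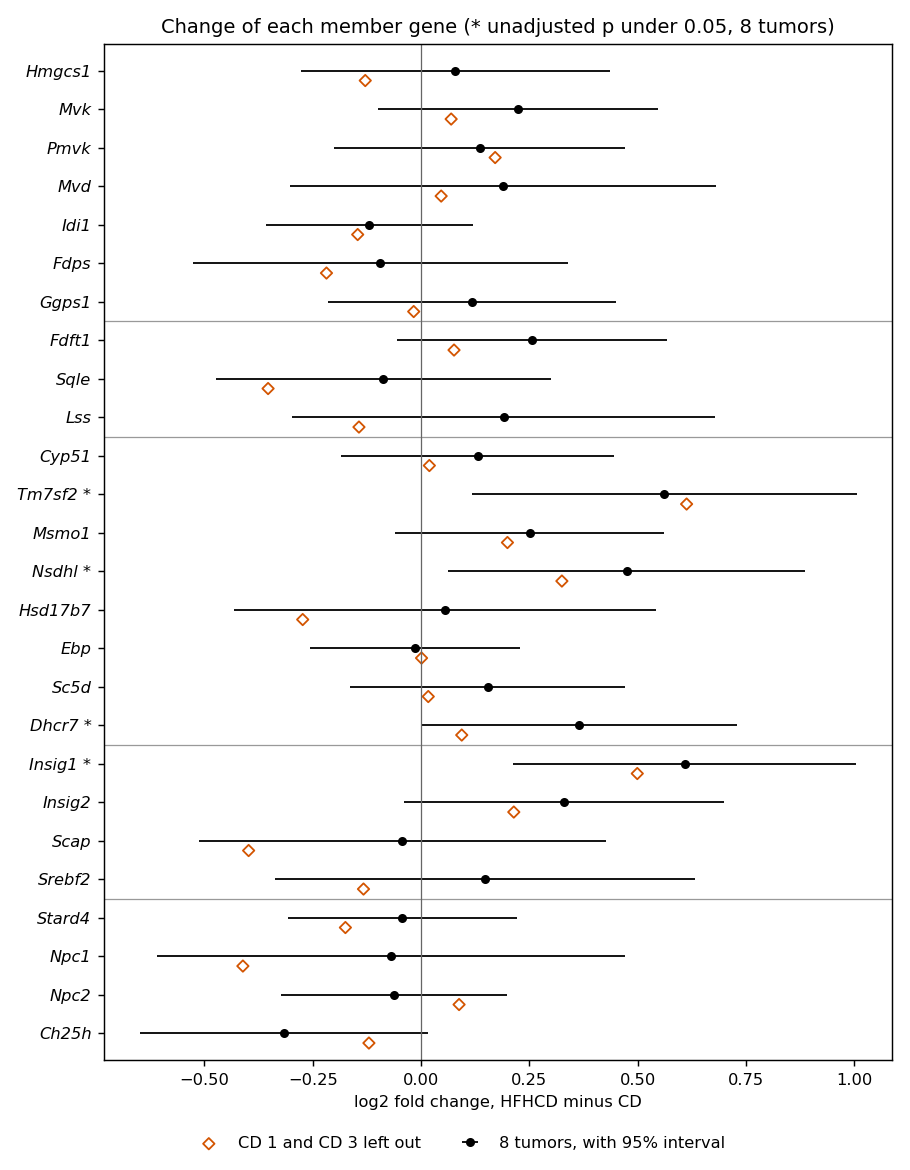
Log2 fold change of each of the 26 genes, HFHCD minus CD (x axis), with the 95% interval from all 8 tumors (black) and the value without CD 1 and CD 3 (open orange diamond). Asterisks mark the 4 genes with an unadjusted p under 0.05 by limma. The diamonds of Insig1 (0.50), Tm7sf2 (0.61) and Nsdhl (0.33) stay right of 0, whereas that of Dhcr7 lies at 0.094 and those of Sqle, Scap and Npc1 lie between -0.35 and -0.41.

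Leaving out CD 1 and CD 3 changed several calls. Insig1, Tm7sf2 and Nsdhl still passed in the same direction, and Sqle (-0.35, unadjusted p = 0.0390, adjusted p = 0.319), Scap (-0.40, unadjusted p = 0.0137, adjusted p = 0.248) and Npc1 (-0.41, unadjusted p = 0.0389, adjusted p = 0.318) now passed limma's threshold as lower. In that setting 3 of the 26 genes were higher and 3 lower, against 7.34% higher and 7.20% lower over all genes, so these counts are to be read against a larger background than with all tumors. Of the 18 enzymes, 11 had a positive value there. Only 2 CD tumors remained in this comparison.

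Much of the spread lay within the diets. CD 3 was the lowest of all 8 tumors for 14 of the 26 genes and the lowest CD tumor for 13 of the 18 enzymes, and CD 1 was the lowest of all 8 for 6, which were Sqle, Hsd17b7, Scap, Srebf2, Stard4 and Npc1. CD 4 was the highest of all 8 for 8 genes and HFHCD 3 for 10. HFHCD 1 was the lowest of its diet for 21 genes and HFHCD 2 for 2, at macrophage list means of 6.50 and 6.42. The SD over 4 tumors was larger under CD than under HFHCD for 25 of the 26 genes, with medians of 0.151 under HFHCD and 0.308 under CD, against 0.136 and 0.197 over all genes, in the same order. The exception was Fdps, with an SD of 0.363 under HFHCD and 0.26 under CD. The share of all genes with a larger SD under CD was not counted.

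Tumors high in Insig1 were mostly high in the enzymes as well. Over 8 tumors Pearson's r with Insig1 was positive for 17 of 18 enzymes and ran from -0.065 (Idi1) to 0.93 (Msmo1). Over the 24674 other named genes r was positive for 56.2%, and it was positive with an unadjusted exact permutation p under 0.05 for 5.76%, against 10 of 18 enzymes (55.6%). Adjusted over the 18 enzymes, 5 passed by an exact permutation test of r: Mvk (r = 0.90), Fdft1 (0.86), Tm7sf2 (0.93), Msmo1 (0.93) and Nsdhl (0.92), each with an adjusted p of 0.0106 to 0.0184. For Msmo1, Spearman's rho was 0.79 (p = 0.0279, adjusted p = 0.11, exact permutation), and by rho 0 of 18 passed after adjustment, with 6 at an unadjusted p under 0.05. Without CD 2 and CD 3, the tumors farthest from the median of Insig1, r was 0.64 for Msmo1 (exact permutation p = 0.163, n = 6), 0 of 18 passed after adjustment and 1 at an unadjusted p under 0.05. That 1 was Fdft1 (r = 0.83, exact permutation p = 0.0472), and r was 0.78 for Dhcr7, 0.71 for Nsdhl, 0.61 for Mvk and 0.52 for Tm7sf2. The adjusted calls were thus lost without CD 2 and CD 3. Leaving out the tumors most extreme in Insig1 narrows its range and leaves 6 tumors, which by itself can weaken r and p. No other pair was left out, so the loss cannot be assigned to these tumors in particular. The points share the diet contrast and the differences in host cell marker lists between tumors. Within each diet, with 4 tumors, r was positive for 17 of 18 enzymes under HFHCD and 18 of 18 under CD. The share over all genes was not computed within a diet. The enzymes also varied together, as HFHCD 1 was the lowest of its diet for 15 of 18 and CD 3 for 13 of 18. These signs are therefore not separate results.

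The distance of Insig1 from the enzymes was wider under HFHCD. This largely restates the rise of Insig1 (0.61), since the mean of the enzymes differed by 0.16 and its diets overlapped. Insig1 minus the mean of the 18 enzymes, a difference chosen after the values were seen and given without a test, was 2.39, 2.38, 2.25 and 2.19 in HFHCD tumors, against 2.01, 1.64, 1.76 and 2.00 in CD tumors. The 4 HFHCD values all lay above the 4 CD values, with means 0.45 apart on the log2 scale.

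Among further genes of the pathway outside the set, none rose. Of 52 measured, 0 rose by limma and 3 fell, against 4.76% and 3.91% over all genes, and their median log2 fold change was -0.003. Those that fell were Lbr, a nuclear membrane protein with sterol reductase activity like that of Tm7sf2 (-0.29, unadjusted p = 0.0427, adjusted p = 0.558), Osbp, which exchanges sterol between endoplasmic reticulum and Golgi (-0.39, unadjusted p = 0.0489, adjusted p = 0.574), and Scarb2, a lysosomal membrane protein (-0.35, unadjusted p = 0.0329, adjusted p = 0.537 by limma). Lbr averaged 8.15 ± 0.13 under HFHCD and 8.45 ± 0.22 under CD (SD, n = 4 each), and the groups overlapped. None of the 3 passed by the methods' t-test or with median centring.

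No gene of the isoprenoid branch list passed (0 of 12), where the smallest p-values were those of Coq2, of ubiquinone synthesis (-0.38, unadjusted p = 0.0565 by limma), and Nus1, of dolichol synthesis (-0.17, unadjusted p = 0.0695 by limma), whose HFHCD tumors all lay below the CD tumors. Of 11 other genes of SREBP processing and sterol-regulated degradation 0 passed, with Erlin1 at -0.30 (unadjusted p = 0.0567 by limma) and Srebf1, the paralog of Srebf2, at 0.21 (unadjusted p = 0.238 by limma). Of 3 genes of lipoprotein uptake and other SREBP2 targets 0 passed, with Mylip, a ligase that degrades lipoprotein receptors, at 0.34 (unadjusted p = 0.0569 by limma) and Tmem97 at 0.15. Of 8 other oxysterol enzymes 0 passed and 5 were dim, and the smallest p-values were those of Sult2b1 and Cyp11a1, both at -0.14.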

How the data were processed

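Total RNA of 8 whole B16-F10 tumors, 4 under HFHCD and 4 under CD, was measured on Affymetrix MouseGene2.0ST arrays. The values are log2 expression, summarised by the authors with RMA in Affymetrix Expression Console according to the submitters' processing notes. RMA corrects background, equalises the arrays and summarises probes, so a shift of the whole array cannot be seen. Tool versions, the probe set definition and a genome build: not given in the sources used here. Diets and replicate numbers came from the sample titles.

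Of 25429 probe sets, 24675 had 1 symbol in the platform annotation and were tested, and 754 were unnamed. HFHCD was compared with CD by lmFit and eBayes of limma 3.58.1 (R 4.3.3), without covariates or filter. The study's own test, a Student's t-test (two-sided) in limma, was run as an alternative, the methods' t-test. For single genes an exact permutation test, two-sided, was added in R. The exact permutation tests of the correlations with Insig1 were run in Python 3.11.15, with ranks from scipy 1.17.1. The sterol genes, the pathway and marker lists, and the tests were chosen with earlier results of these data known. All measured genes of the set are named. Those that passed, those without overlap and the 3 largest and 3 smallest changes are given in full. Of the other pathway lists, genes that passed are named, or else the 2 with the smallest p. Alternatives were a replicate block, leaving out each array, leaving out CD 1 and CD 3, other variance priors, array weights, 3 scalings, a filter for genes above 4.49 in at least 4 arrays, and all probe sets. The script was tested on simulated data of 24675 genes in 5 simulations with 200 genes changed, where 84.3% of changes of 0.5 and 98.2% of changes of 1 on the log2 scale were called, and 5.24% of unchanged genes. Genes were simulated independently of each other and with equal spread on both diets, and the shares are averages over genes of the whole array. The sterol genes had larger median SDs, at 0.151 under HFHCD and 0.308 under CD, against 0.136 and 0.197 over all genes. The shares therefore need not hold for the sterol genes. Plots used matplotlib 3.10.9.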

Additional observations from a re-analysis of the deposited data

Results flagged for a closer look

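Single tumors stood apart from the other 3 of their diet in 3 of the 52 groups examined (26 genes on 2 diets). The measure is the gap to the nearest tumor divided by the range, set against Dixon's 95% critical value, which chance alone passes in about 1 in 20 groups. Fdps was high in CD 4 (7.22, against 6.69 to 6.71 in the other CD tumors), with a ratio of 0.967. Ggps1 was low in CD 3 (7.50, against 8.09 to 8.15 in the other CD tumors), with a ratio of 0.911. Sc5d was low in CD 3 (8.95, against 9.49 to 9.55), with a ratio of 0.896. All 3 were under CD and 0 under HFHCD.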

How the results depend on the processing

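Insig1 passed in all 18 alternatives, Tm7sf2 in 16, Nsdhl in 13 and Dhcr7 in 7. Over the 26 sterol genes and the 3 other pathway genes that passed, 522 single-gene values were recomputed, of which 428 kept direction and side of the threshold, 42 no longer passed, 16 newly passed and 36 turned in sign, none of the last while passing. The cause of these changes was not tested.

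The count of higher sterol genes (4 with all tumors) was 2 by the methods' t-test and ran from 1 (without HFHCD 3) to 8 (without CD 4) when each array was left out. It was 2 without HFHCD 2, HFHCD 4 or CD 2, and Dhcr7 no longer passed without CD 1 or CD 3 alone. Lower sterol genes (0) numbered 3 without CD 1 and CD 3, 1 under quantile and 1 under cyclic loess normalization (Ch25h in both), and 0 to 1 leaving out each array. Enzymes with a positive value (14) numbered 12 to 17 leaving out each array. Sterol genes passing the exact permutation test numbered 2, and 0 with median centring. Enzymes correlated with Insig1 (5) numbered 0 without CD 2 and CD 3.

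Other pathway genes that were higher (0) numbered 1 without CD 1 and CD 3, 2 with array weights, 1 with quantile normalization and 0 to 3 leaving out each array. Those lower (3) numbered 6 without CD 1 and CD 3, 1 by the methods' t-test, 1 with a trended and robust prior, 5 with array weights, 0 with median centring, 1 with the filter on low genes and 0 to 6 leaving out each array. Over all genes, 1175 were higher, and 1810 without CD 1 and CD 3, 1928 with array weights and 839 to 1942 leaving out each array. For lower genes these were 966, 1776, 1582, 632 to 1767, and 635 with the filter.

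Replicate numbers gave no pairing of the tumors (correlations of same-numbered deviations 0.269, -0.0293, -0.265 and 0.0507). With the replicate number as a block, all 4 genes passed, Ch25h was added as the 1 lower sterol gene, 1 other pathway gene was higher and 3 were lower.

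Without CD 1 and CD 3 the log2 fold change turned to -0.13 for Hmgcs1, -0.017 for Ggps1, -0.14 for Lss, -0.27 for Hsd17b7, -0.13 for Srebf2, 0.0012 for Ebp and 0.088 for Npc2. With array weights it turned to -0.013 for Hmgcs1, -0.11 for Hsd17b7, -0.015 for Srebf2, 0.014 for Ebp and 0.046 for Npc2. Ebp turned to 0.00012 with median centring and 0.018 with quantile normalization. Leaving out each array, log2 fold changes crossed 0 for Hmgcs1 (-0.0020 to 0.19), Mvd (-0.010 to 0.32), Fdps (-0.20 to 0.069), Ggps1 (-0.035 to 0.18), Sqle (-0.21 to 0.039), Hsd17b7 (-0.14 to 0.20), Ebp (-0.075 to 0.057), Scap (-0.24 to 0.088), Srebf2 (-0.066 to 0.30), Stard4 (-0.12 to 0.045), Npc1 (-0.31 to 0.095) and Npc2 (-0.14 to 0.027).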
